A study of Mus musculus with 20 samples.

Results

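The genes described here encode the mitochondrial solute carriers of the SLC25 family, except the ADP/ATP carriers Slc25a4 and Slc25a5 and the carnitine-acylcarnitine carrier Slc25a20. They were chosen by name alone: every row of the 2 deposited expression tables whose symbol starts with Slc25a, less those 3. The rule found 43 genes of 19222 in the series, 43 of 17808 in the table of 6-week hearts and 42 of 18657 in the table of 6-month hearts, where Slc25a48 is not listed. The family label rests on the symbols, and 2 of the 43 are known from elsewhere in the cell: Slc25a17 is a carrier of the peroxisomal membrane and Slc25a46 sits in the outer mitochondrial membrane.

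RNA was sequenced from 20 mouse heart samples in 5 groups, in a study of what loss of Sorbs2, a cytoskeletal adaptor protein, does to the heart and to its relaxation. At 6 weeks of age there were 3 wild-type (WT) and 3 Sorbs2 knockout (KO) libraries, and at 6 months 5 WT, 5 KO and 4 libraries of KO mice that had been injected 2 days after birth with AAV9-Tnnt2-Sorbs2 (called KO+AAV below). This viral vector carries Sorbs2 behind the cardiac troponin T promoter, which is active in cardiomyocytes. The other groups were untreated, and no group labelled as given an empty vector was analysed here. How the knockout was made, and in which cells, is not given in the labels used here. Nor do they say that samples came from separate litters or batches, so the p-values cover only the spread between these samples, which may in part be technical.

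The inner mitochondrial membrane is impermeable to most metabolites, and members of this family each exchange or import a small set of them: phosphate for the ATP synthase, malate, 2-oxoglutarate, aspartate and glutamate for the shuttle that brings reducing equivalents from the cytosol, and cofactors such as coenzyme A, S-adenosylmethionine, glutathione and iron. All of them are encoded in the nucleus and imported from the cytosol. Heart muscle depends on oxidative phosphorylation, and the phosphate and ADP/ATP carriers are abundant proteins of its inner mitochondrial membrane. Nuclear receptors of the oestrogen-related receptor family, with their coactivator Ppargc1a, and the factors NRF1 and GABPA are textbook regulators of genes for mitochondrial proteins.

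Promoter windows from RefSeq (build GRCm38.p6, from 250 bases before to 50 after each transcript start) were on hand for 32 of the 43 genes, as 42 windows of 300 bases. They were searched on both strands for 3 exact motifs that do not overlap in sequence. The oestrogen-related receptor half-site AAGGTCA lay in 1 of the 42 windows (2.38%), against 3.88% of 17729 windows of genes in the tables. The NRF1 motif GCGCATGC lay in 1 of 42 (2.38%, against 4.09%), and the GABPA motif CCGGAAGT in 0 of 42 (against 5.94%). A match is a description of letters and no match says only that these letters are not in this window. The half-site match was upstream of Slc25a34, among the genes that fell in KO hearts at 6 months, and is shown for that reason. It lies on mouse chromosome 4, chr4:141623920-141623979, on the minus strand as the gene is read, outside the annotated exons, and the capitals mark the half-site, which reads on the opposite strand and begins 119 bases before the start.
Slc25a34: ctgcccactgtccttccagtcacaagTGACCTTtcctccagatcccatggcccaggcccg

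All values are the authors' normalised counts, which were scaled separately at each age, so levels are compared within an age only. Sorbs2 itself ranged from 1409 to 1990 in WT and from 276 to 365 in KO at 6 weeks. At 6 months it ranged from 4562 to 5398 in WT, from 494 to 1755 in KO and from 4696 to 17923 in KO+AAV, so no KO library reached a WT or KO+AAV library. The normalised totals ran from 6705133 to 8240294 per library at 6 weeks and from 11359135 to 13670340 at 6 months, and the reads behind them are not known. Cardiomyocyte markers were high in all libraries. Atrial markers (Myl7, Sln, Myl4 and Bmp10) summed to between 39485 and 71154 in the 6-week libraries and to at most 132 at 6 months outside the library KO 3, where they reached 1183. Atrial RNA was thus abundant in the 6-week samples, although the labels name the left ventricle and the protocol ventricular muscle. Libraries with Xist expression numbered 1 of 3 in each 6-week group, and at 6 months 2 of the 5 in WT, 0 of the 5 in KO and 2 of the 4 in KO+AAV.

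Within the 6-month groups, a shared pattern set 6 libraries (WT 4, WT 5, KO 1, KO 5, KO+AAV 1 and KO+AAV 2) apart from the other 8. It was the main axis of the spread around the group means, with 36.7% of the variance over all genes tested, and no label names it. Scores on this axis were graded, and the cut between the 6 and the 8 fell between WT 4 (13.87) and WT 1 (-7.15). Of the 36 carriers tested, 7 were lower in the 6 libraries than in the 8 within each of the 3 groups without overlap, as were 10.7% of all genes tested (Slc25a11, Slc25a12, Slc25a13, Slc25a16, Slc25a35, Slc25a44 and Slc25a51), and 1 was higher (Slc25a27), as were 8.12% of all genes. The mean difference on the log2 scale was -1.25 for Slc25a16, -0.97 for Slc25a13, -0.78 for Slc25a12 and 1.05 for Slc25a27. The remaining 28 were mixed, and the difference was 0.00 for Slc25a3. Because these libraries were picked by their values, the difference between them is a description and carries no test.

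**Figure D1:**
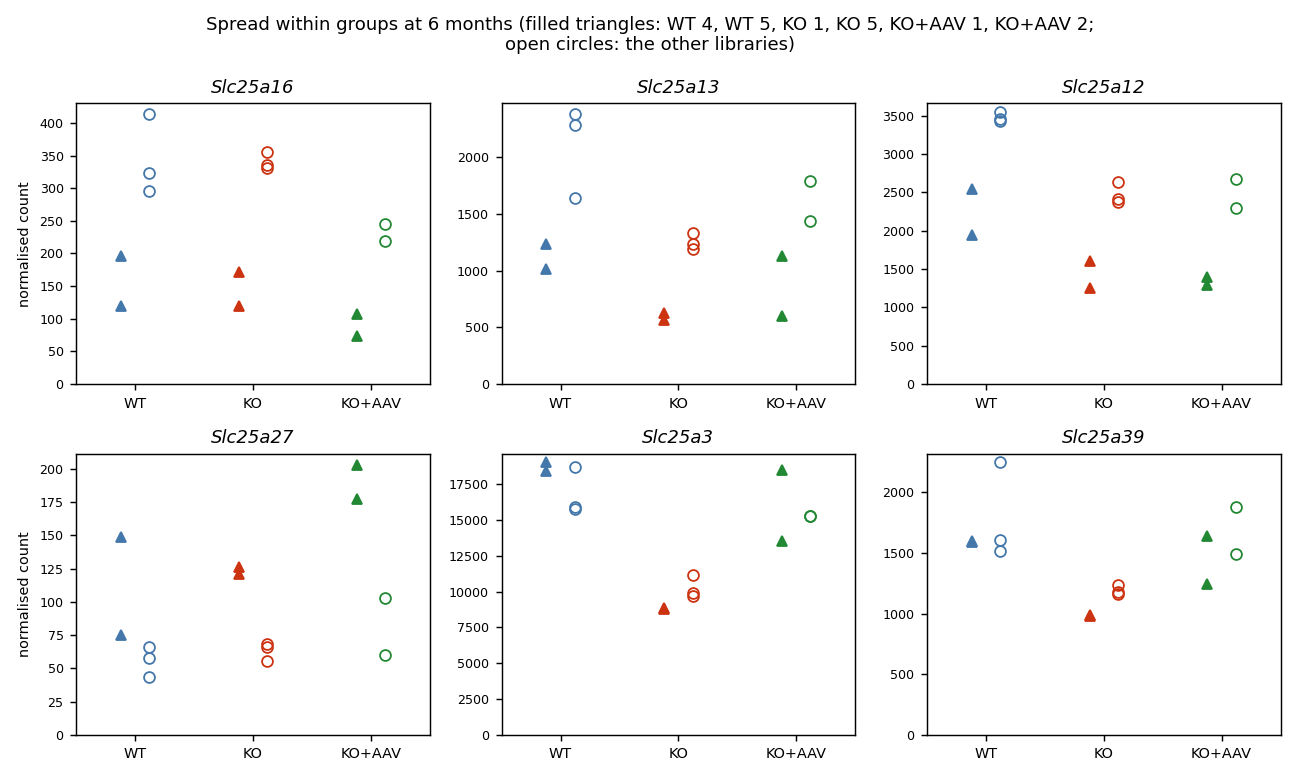
Normalised counts of 6 carrier genes (y axis, from 0) in the 14 libraries at 6 months, by group (x axis). Filled triangles are the 6 libraries on one side of the shared pattern and open circles the other 8. Slc25a16, Slc25a13 and Slc25a12 are lower and Slc25a27 higher in the triangles within every group, whereas Slc25a3 and Slc25a39 follow the groups.

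In WT hearts the carriers spanned more than 3 orders of magnitude per kilobase of merged exons, and a pair of genes dominated. At 6 months the normalised count per kb was 3170 ± 290 (SD, n = 5) for the phosphate carrier Slc25a3 and 3060 ± 280 for the oxoglutarate-malate carrier Slc25a11, and these levels per kb do not differ beyond their spread. Before division by length the means were 17578 for Slc25a3 and 6488 for Slc25a11, and the groups of values were apart. The merged exons of all annotated transcripts were 5550 and 2120 bases long. Shares and places per kb depend on that length, which may differ from the length of the RNA in the heart. They made up 29.8% and 28.8% of the summed level per kb of all 42 genes. Next came Slc25a34, whose substrate is not settled, at 922 ± 198, the glutathione importer Slc25a39 at 621 ± 110, and the aspartate-glutamate carriers Slc25a13 at 450 ± 161 and Slc25a12 at 407 ± 96.9. Below them the pyrimidine nucleotide carrier Slc25a33 stood at 239 ± 98.4, the outer-membrane protein Slc25a46 at 179 ± 27.9 and the ATP-Mg/phosphate carrier Slc25a23 at 165 ± 27.2. From Slc25a34 down, each gene lay within the summed SDs of the next, so neighbours in this order do not differ beyond their spread.

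At 6 weeks the order began the same way. Slc25a3 had 930 ± 249 normalised counts per kb (SD, n = 3), or 24.6% of the summed level, and Slc25a11 had 641 ± 87.8 (17.0%). Slc25a39 followed at 380 ± 97.9, and Slc25a34 stood at 156 ± 33.4. Slc25a12 was the eighth at 91.2 ± 4.68 and Slc25a13 the thirteenth at 77.6 ± 2.26, against the sixth and the fifth place at 6 months. From the eighth to the thirteenth place, each gene lay within the summed SDs of the next. Neighbours there do not differ beyond their spread, and no shift in place between the ages is shown. Places are given within each age, because the levels of the 2 tables cannot be set against each other and atrial RNA differed as well.

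At the other end, 7 genes stayed under the minimum for testing at both ages (Slc25a2, Slc25a18, Slc25a21, Slc25a41, Slc25a43, Slc25a48 and Slc25a53), and Slc25a31 did so at 6 weeks. The highest value of any of these 7 was 16.7, for the glutamate carrier Slc25a18 in a 6-week WT library. Slc25a21 and Slc25a41 never exceeded 2.85 and 1.88. Slc25a31, the germ-cell ADP/ATP carrier, was tested at 6 months because it reached 10 in 4 libraries, with values from 1.64 to 20.7. Testing required a value of 10 or more in 3 libraries at 6 weeks and in 4 at 6 months, so 35 of the 43 genes were tested at 6 weeks and 36 of the 42 at 6 months.

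**Figure D2:**
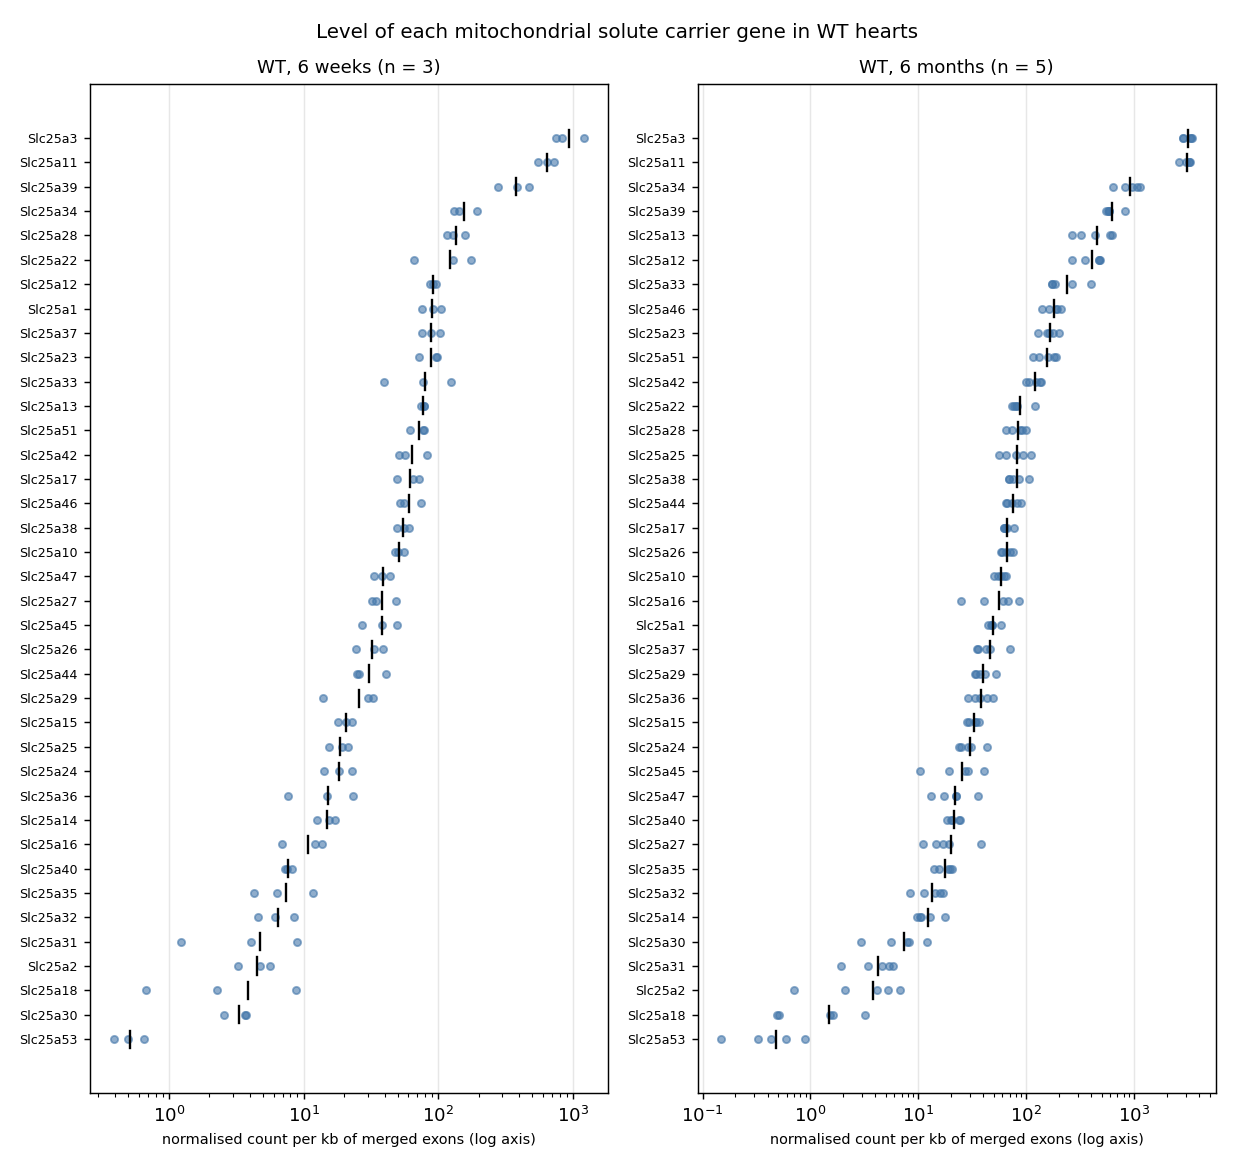
Normalised count per kb of merged exons (x axis, log scale) of each carrier gene in WT hearts at 6 weeks (left, n = 3) and 6 months (right, n = 5), in order of the mean. Points are libraries and black bars means, and 38 genes above 0 in every library of the group are drawn. Slc25a3 and Slc25a11 lead at both ages, and at 6 months they stand apart from the rest.

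The effect of Sorbs2 loss in young hearts was read from KO against WT at 6 weeks. No carrier passed the test at this age (limma, adjusted p under 0.05 over all genes tested): 0 of 35, against 0.589% of all genes tested (0.378% higher, 0.211% lower), and 8 had an unadjusted p under 0.05, as did 15.4% of all genes. The median log2 change of the 35 was -0.19 and 27 lay below 0, against a median of 0.01 over all genes. Groups did not overlap for 11 of the 35 (21.2% of all genes tested), 10 of them lower in KO (10.3% of all genes tested) and 1 higher (10.9%). When libraries were scaled to equal totals the carriers' median was -0.10, and the calls over all genes went from 50 higher and 28 lower to 27 higher and 9 lower.

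The glutamate carrier Slc25a22 was among the carriers nearest to the threshold. Slc25a22 read 395, 778 and 1043 in WT and 249, 330 and 300 in KO, a log2 change of -1.23 (SE 0.31, adjusted p = 0.0964, limma). Its WT values were far apart and the lowest of them lay close to the KO libraries. Without that library, WT1, the log2 change was -1.63 (adjusted p = 0.0169). A covariate for Xist-expressing libraries gave an adjusted p of 0.0228, and among libraries with Y-linked expression alone it was 0.00182.

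The abundant energy carriers differed from each other at this age. Slc25a3 read 6741, 4589 and 4159 in WT and 4320, 4791 and 3853 in KO, with overlapping groups (log2 change -0.23, SE 0.24, adjusted p = 0.673). Slc25a11 read 1539, 1374 and 1167 in WT and 948, 1030 and 858 in KO, with every KO value under every WT value (log2 change -0.52, SE 0.19, adjusted p = 0.222). Slc25a13 read 300, 299 and 285 in WT and 183, 210 and 153 in KO, also apart (log2 change -0.70, SE 0.20, adjusted p = 0.131). Its paralogue Slc25a12 read 703, 635 and 672 in WT and 685, 650 and 556 in KO, and those groups overlapped (log2 change -0.09, SE 0.18, adjusted p = 0.838). None of these changes passed the test. Fibroblast markers summed to between 20433 and 23932 in WT and 26101 and 37483 in KO, and cardiomyocyte markers to between 442323 and 696231 in WT and 383792 and 470622 in KO. Endothelial markers summed to between 11076 and 14495 in WT and 17047 and 22199 in KO, also apart, and adipocyte markers to between 1494 and 2073 in WT and 1982 and 3888 in KO. Of these 4 lists 0 genes passed the test at 6 weeks (limma), and 6 fibroblast, 0 cardiomyocyte, 5 endothelial and 3 adipocyte genes had an unadjusted p under 0.05. Their part in the carriers' values was not tested, and in bulk tissue fewer cells of a type and less RNA per cell cannot be told apart.

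At 6 months, 8 of the 36 carriers tested were lower in KO than in WT hearts (22.2%, against 8.18% of all 13419 genes tested) and 1 was higher (2.78%, against 8.13%). The 8 were the phosphate carrier Slc25a3, the oxoglutarate-malate carrier Slc25a11, the dicarboxylate carrier Slc25a10, the glutathione importer Slc25a39 and its paralogue Slc25a40, the coenzyme A carrier Slc25a42, the S-adenosylmethionine carrier Slc25a26, and Slc25a34. Their falls ran from 24.5% for Slc25a26 to 45.7% for Slc25a42. The 1 that rose was Slc25a23, a calcium-regulated ATP-Mg/phosphate carrier, by 1.43-fold. The median log2 change of the 36 was -0.32, with 23 below 0, against a median of 0.00 over all genes, and 16 had an unadjusted p under 0.05, as did 28.7% of all genes. Groups did not overlap for 10 carriers that were lower in KO (7.29% of all genes tested) and 1 that was higher (6.56%). When libraries were scaled to equal totals, the median over all genes moved to 0.16 and that of the carriers to -0.16, and the calls over all genes went from 1091 higher and 1098 lower to 1775 higher and 653 lower.

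**Figure D3:**
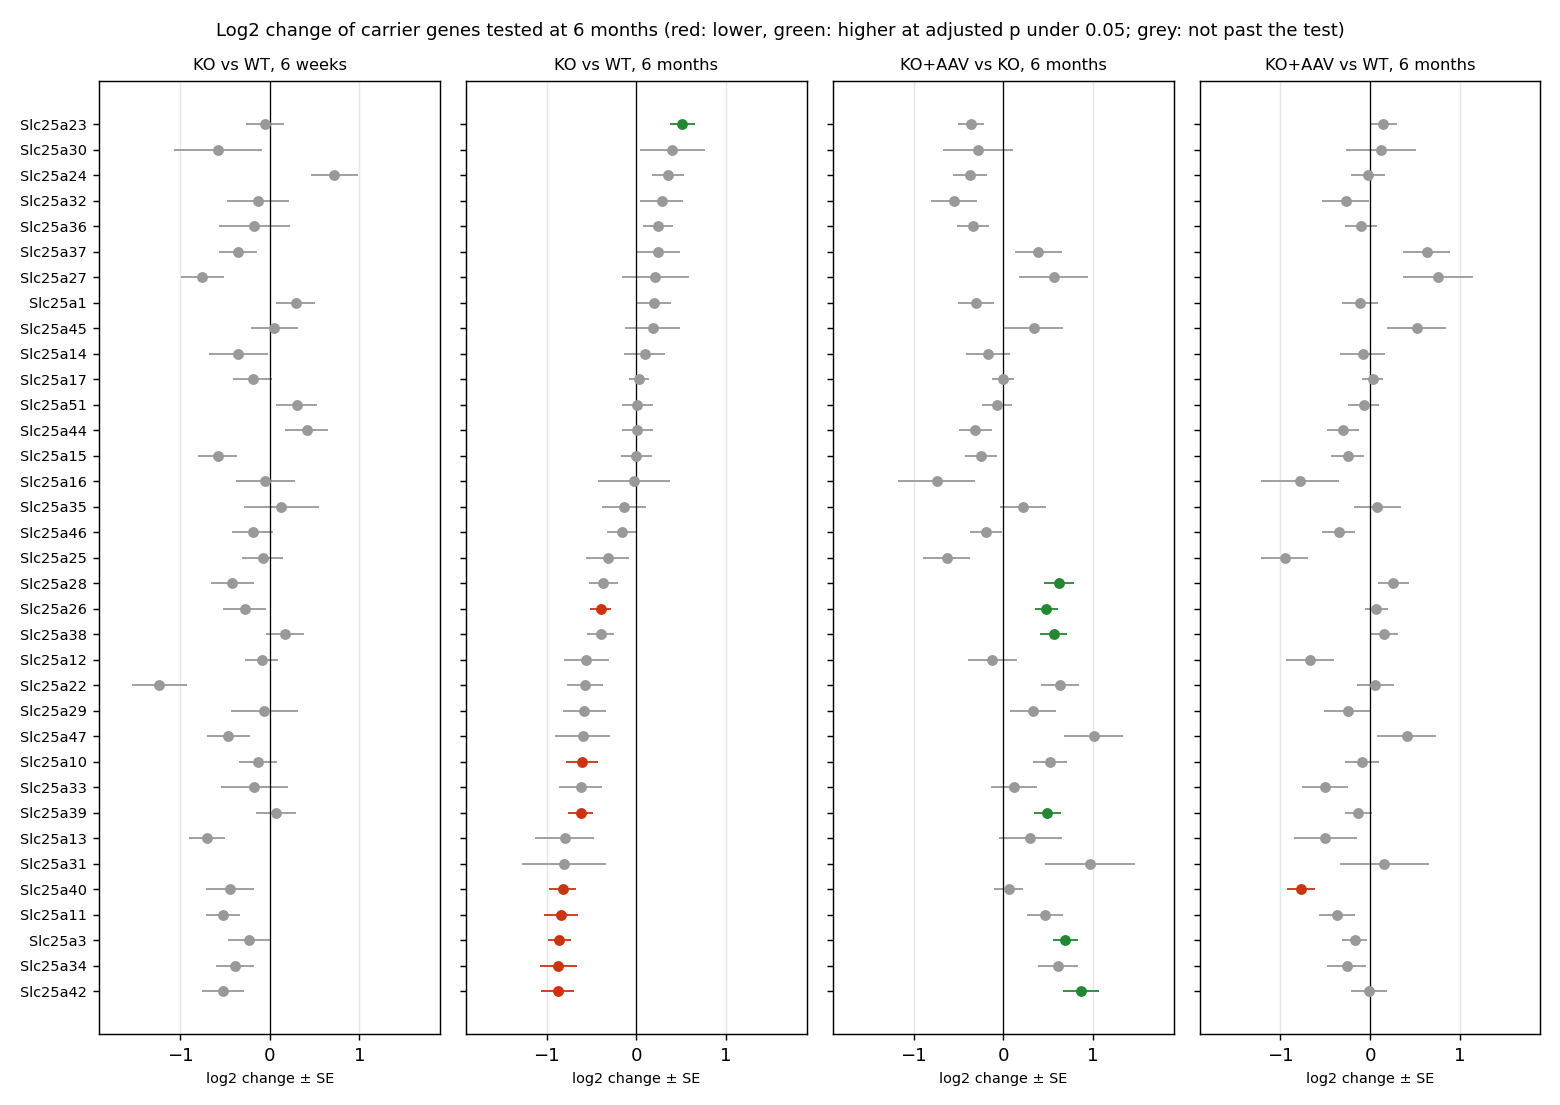
Log2 change with its standard error (x axis) of 35 carriers tested at 6 months (y axis, ordered by KO against WT at 6 months) in the 4 comparisons. Red marks genes lower and green genes higher at an adjusted p under 0.05, and grey those that did not pass. None is coloured at 6 weeks, 9 are in KO against WT at 6 months, 6 in KO+AAV against KO and 1 in KO+AAV against WT.

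Among the 11 energy carriers tested at 6 months, 3 fell, 1 rose and 7 did not pass, with a median log2 change of -0.57. Slc25a3 feeds phosphate to the ATP synthase and lies on chromosome 10 (91116574 to 91124059, mm10, minus strand). It read 18728, 15894, 15776, 18409 and 19082 in WT and 8857, 9918, 11167, 9692 and 8776 in KO. The highest KO library stayed well under the lowest WT library, and the log2 change was -0.86 (SE 0.13, adjusted p = 0.000362, limma). The call held under each of the 25 alternatives run, with adjusted p at most 0.0186. Slc25a11 (chromosome 11, 70644196 to 70647479, minus strand) exports 2-oxoglutarate for malate. Its counts were 6776, 6946, 6799, 6435 and 5482 in WT and 2677, 4475, 4293, 4144 and 2850 in KO. The groups were apart, with the KO 1 and KO 5 values lowest (log2 change -0.84, SE 0.19, adjusted p = 0.00627). Leaving both of those libraries out gave -0.59 (adjusted p = 0.0586). Exons of Slc25a11 overlap the gene Rnf167 on the opposite strand over 8.92% of its exon length, and the strand setting of the counting is not known.

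The dicarboxylate carrier Slc25a10 (chromosome 11, 120491840 to 120499187, plus strand) was expressed at a far lower level. WT libraries read 214, 222, 189, 201 and 172, and KO libraries 108, 170, 132, 172 and 90.3. The highest KO library came level with the lowest WT library, and the log2 change was -0.61 (SE 0.18, adjusted p = 0.0283). This call was lost without WT 1, WT 2, WT 4, KO 1, KO 3 or KO 5, with adjusted p from 0.0513 to 0.0798, and 12 of the 25 alternatives ended it. Exons of Slc25a10 overlap the gene Gm11788 on the opposite strand over 6.6% of its exon length.

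Slc25a12 and Slc25a13 exchange aspartate for glutamate in the malate-aspartate shuttle and are activated by calcium. Slc25a12 read 3458, 3545, 3436, 2549 and 1939 in WT and 1248, 2372, 2411, 2632 and 1599 in KO, and Slc25a13 read 1635, 2382, 2282, 1235 and 1013 against 627, 1335, 1187, 1235 and 567. In both genes the WT 4 and WT 5 libraries reached down among the KO values. The log2 changes were -0.56 (SE 0.25, adjusted p = 0.158) for Slc25a12 and -0.80 (SE 0.33, adjusted p = 0.117) for Slc25a13, and neither passed. With the side of the shared pattern as a covariate, an alternative chosen after seeing the data, both log2 changes stayed the same and the adjusted p were 0.000677 and 0.001. In the 8 libraries of one side alone they were 0.00499 and 0.00749. The covariate was drawn from the spread of these same values, so those p are too small. It also raised the number of carriers called lower from 8 to 13, and that of all genes called lower from 1098 to 1908.

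Slc25a23 (chromosome 17, 57043711 to 57059863, minus strand) went the other way. Its values were 1068, 822, 935, 860 and 678 in WT and 1072, 1125, 1098, 1490 and 1444 in KO. The groups touched, with WT 1 and KO 1 nearly equal (log2 change 0.51, SE 0.14, adjusted p = 0.0187). The call was lost without KO 5 (adjusted p = 0.0586) and among libraries with Y-linked expression alone (0.137), and under 6 of the 25 alternatives in all. Its relatives Slc25a24 and Slc25a25 had log2 changes of 0.35 (adjusted p = 0.232) and -0.32 (0.429). Slc25a22 did not overlap between the groups, with 442 to 724 in WT and 317 to 371 in KO, but its log2 change of -0.57 did not pass (adjusted p = 0.0647). The citrate carrier Slc25a1 had a log2 change of 0.19 (adjusted p = 0.599).

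Of the 13 carriers of cofactors, nucleotides and metals, 4 fell and 9 did not pass, with a median log2 change of -0.31. Slc25a39 (chromosome 11, 102402985 to 102407946, minus strand) and its paralogue Slc25a40 (chromosome 5, 8422850 to 8454797, plus strand) are linked to glutathione import into mitochondria. Slc25a39 read 2250, 1517, 1605, 1596 and 1587 in WT and 989, 1160, 1234, 1175 and 978 in KO, and the groups were apart (log2 change -0.62, SE 0.14, adjusted p = 0.00621). Slc25a40 read 205, 201, 169, 172 and 155 in WT and 98.8, 126, 93.3, 90.1 and 102 in KO, apart as well (log2 change -0.82, SE 0.15, adjusted p = 0.00162). Slc25a39 lost its call without KO 1 and KO 5 together (adjusted p = 0.0559), and Slc25a40 in the 6 libraries of one side of the shared pattern alone (0.103). Of the distinct 50-base stretches in the transcripts of Slc25a40, 3.27% also occur in those of Gm5066, so a part of its counts could belong there.

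Slc25a42 (chromosome 8, 70184340 to 70212305, minus strand) brings coenzyme A into the matrix. Its counts were 809, 746, 827, 602 and 637 in WT and 259, 426, 446, 547 and 334 in KO, with the groups apart (log2 change -0.88, SE 0.18, adjusted p = 0.00388). The call held under all 25 alternatives, with adjusted p at most 0.0304. Slc25a26 (chromosome 6, 94500331 to 94604672, plus strand) imports S-adenosylmethionine, the methyl donor. It read 366, 285, 342, 313 and 283 in WT and 231, 273, 247, 258 and 192 in KO, and the nearest libraries were 10 counts apart (log2 change -0.40, SE 0.12, adjusted p = 0.0329). Without WT 1, WT 3, WT 4, KO 1, KO 3 or KO 5 the adjusted p of Slc25a26 rose to between 0.0539 and 0.0979, and 13 of the 25 alternatives ended the call, among them equal totals (log2 change -0.25, adjusted p = 0.173).

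The other 9 of this role did not pass at 6 months. The mitoferrins, which import iron, had log2 changes of 0.24 for Slc25a37 (adjusted p = 0.587) and -0.37 for Slc25a28 (0.148). The pyrimidine nucleotide carrier Slc25a33 had -0.62 (0.0982), while its relative Slc25a36 had 0.24 (0.381). The NAD carrier Slc25a51 and the peroxisomal Slc25a17 lay at 0.01 and 0.03. Slc25a16 had -0.03 with an SE of 0.40, the widest of this role, and its values followed the shared pattern.

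Slc25a34 was the only carrier of unsettled substrate to fall. Its counts were 3054, 2819, 2540, 2177 and 1715 in WT and 924, 1550, 1642, 1559 and 1092 in KO, with WT 5 just above the highest KO library (log2 change -0.87, SE 0.21, adjusted p = 0.0104). Without KO 1 and KO 5 the log2 change was -0.61 (adjusted p = 0.0892), and in the 6 libraries of one side of the shared pattern -0.94 (0.0584). None of the 4 amino acid carriers tested passed. Slc25a38, which imports glycine for haem synthesis, did not overlap between the groups (191 to 292 in WT, 144 to 186 in KO) and had a log2 change of -0.40 (adjusted p = 0.0777). The basic amino acid carrier Slc25a29 had -0.58 (0.12), and the ornithine carrier Slc25a15 and the branched-chain amino acid carrier Slc25a44 lay at 0.00 and 0.01. The 3 uncoupling-protein-like genes Slc25a14, Slc25a27 and Slc25a30 were between 0.09 and 0.40, with none past the test, and Slc25a46 had -0.16 (0.615).

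**Figure D4:**
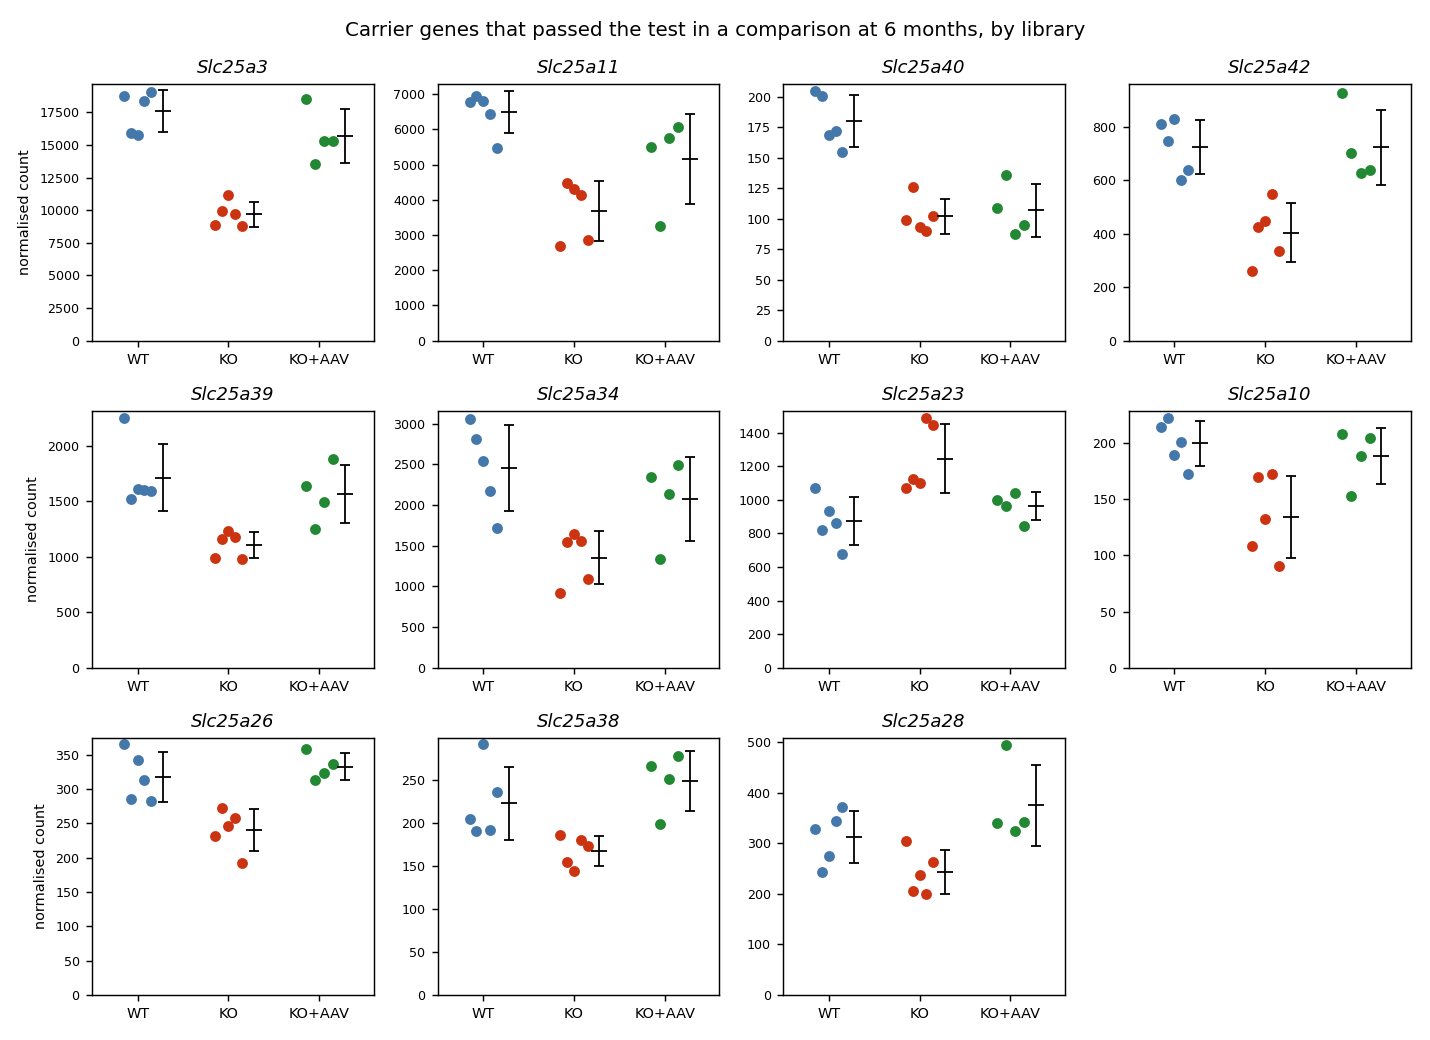
Normalised counts (y axis, from 0) of 11 carriers that passed the test in a comparison at 6 months, in WT (n = 5), KO (n = 5) and KO+AAV (n = 4) hearts. Points are libraries, and the bar beside them is the mean ± SD. Slc25a3, Slc25a11, Slc25a42 and Slc25a39 are lowest in KO, Slc25a40 is low in both KO and KO+AAV, and Slc25a23 is highest in KO.

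The fall of these carriers came with changes in the heart's other cell markers. Cardiomyocyte markers summed to between 1418800 and 1685606 in WT, 763873 and 1120820 in KO and 1222450 and 1742790 in KO+AAV, and of the 10 genes Ckm, Myh6, Tnni3 and Myl3 fell in KO. The Myl3 call was lost under 15 of 25 alternatives, including leaving out any of WT 1, WT 4, WT 5, KO 2, KO 3, KO 4 and KO 5, and that of Tnni3 was lost without WT 4. Fibroblast markers summed to between 14795 and 21009 in WT, 27746 and 40596 in KO and 17688 and 21822 in KO+AAV, and 7 of those 10 genes rose in KO. Of these, Dcn lost its call under 11 alternatives, including leaving out WT 1, WT 2, WT 3, KO 1, KO 4 or KO 5, and Pi16 without WT 1 or KO 5. Smooth muscle markers summed to between 3884 and 7171 in WT, 2485 and 3509 in KO and 3652 and 6129 in KO+AAV, and Acta2, 1 of the 4 genes, fell in KO. Only 2 of the 4 had a log2 change below 0 in KO against WT, with a median of -0.20 and a range from -1.26 to 0.96. Endothelial markers summed to between 22983 and 31041 in WT, 18159 and 27689 in KO and 25021 and 36653 in KO+AAV, with WT and KO overlapping. All 10 endothelial genes had a log2 change below 0 in KO against WT, and 0 passed the test. No cardiomyocyte or fibroblast marker was at 0 in a group. The cardiomyocyte sum moved the same way as the carriers that fell, with all 10 genes below 0 in KO against WT. The fibroblast sum moved the opposite way, with 1 of 10 below 0. The smooth muscle sum was lower in KO too, but its genes were divided. The part of these sums in the carriers' changes was not tested.

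The KO+AAV group asked whether Sorbs2 delivered to cardiomyocytes after birth changes expression in KO hearts. Against KO, 7 of 36 carriers were higher in KO+AAV (19.4%, against 5.55% of all genes tested) and 0 were lower (against 5.69%). Among them were Slc25a3, Slc25a42, Slc25a39, Slc25a26, the glycine carrier Slc25a38 and the mitoferrin Slc25a28. The median log2 change of the 36 was 0.26, against 0.00 over all genes, and 15 had an unadjusted p under 0.05, as did 29.6% of all genes. Groups did not overlap for 7 carriers higher in KO+AAV (6.68% of all genes tested) and for 1 lower (7.44%). This comparison and KO against WT use the same KO libraries, so an opposite sign in both is no independent sign of anything and the values are set side by side only. Equal totals changed the split over all genes from 745 higher and 764 lower to 521 higher and 1017 lower.

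Slc25a3 read 18530, 13557, 15295 and 15315 in KO+AAV, each above the highest KO library (log2 change 0.69, SE 0.14, adjusted p = 0.00607, limma). Among libraries with Y-linked expression alone, which leaves 2 KO+AAV libraries, its adjusted p was 0.11. Slc25a42 read 927, 700, 625 and 639, also apart from KO (log2 change 0.87, SE 0.20, adjusted p = 0.0109). That call was lost without KO+AAV 1 (0.74, adjusted p = 0.0541), the highest library. Against WT the log2 changes were -0.17 (SE 0.14, adjusted p = 0.484) for Slc25a3 and -0.01 (SE 0.20, adjusted p = 0.98) for Slc25a42.

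Among the cofactor carriers, 5 of 13 rose. Slc25a28 read 329, 244, 275, 344 and 372 in WT, 305, 206, 238, 200 and 264 in KO, and 340, 494, 324 and 343 in KO+AAV. WT and KO overlapped and KO+AAV stood above KO (log2 change 0.62, SE 0.17, adjusted p = 0.0313). The call ended without KO 2, KO 3, KO 4, KO 5, KO+AAV 1 or KO+AAV 2, with adjusted p from 0.0502 to 0.0932. Slc25a26 read 358, 313, 324 and 337 in KO+AAV (log2 change 0.48, SE 0.13, adjusted p = 0.0283), all above the KO libraries and within the WT range, and the call was lost without KO 5 (0.0719) or KO+AAV 1 (0.0967). Slc25a39 read 1637, 1248, 1494 and 1877 (log2 change 0.49, SE 0.15, adjusted p = 0.0436). Its lowest KO+AAV library exceeded the highest KO library by 14 counts, and 18 of 24 alternatives ended this call, including leaving out any KO library or KO+AAV 1, KO+AAV 3 or KO+AAV 4 (adjusted p 0.0538 to 0.132).

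Slc25a38 read 205, 191, 292, 192 and 236 in WT, 186, 155, 144, 181 and 173 in KO, and 267, 199, 251 and 278 in KO+AAV. KO lay below both other groups, and against KO the log2 change was 0.56 (SE 0.15, adjusted p = 0.0302). Its call was lost without KO 2, KO 3, KO 5, KO+AAV 1, KO+AAV 3 or KO+AAV 4, with adjusted p from 0.0566 to 0.101. The number of carriers called higher fell from 7 to 4 without KO 2 or KO 3, to 3 without KO 5 and to 1, Slc25a3, without KO+AAV 1. Over all genes the number called higher fell from 745 to 499, 531, 405 and 240 in these fits, in the same order. Under equal totals the carriers called higher fell to 3, Slc25a3 and Slc25a42 among them, and all genes called higher to 521.

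Several other carriers did not pass the test in KO+AAV against KO. Those of them that had fallen in KO were Slc25a11, Slc25a34, Slc25a10 and Slc25a40, the last described below. Slc25a11 read 5500, 3262, 5767 and 6058, with KO+AAV 2 among the KO values (log2 change 0.47, SE 0.20, adjusted p = 0.132), and without KO+AAV 2 it was 0.68 (adjusted p = 0.0305). Slc25a34 read 2345, 1334, 2131 and 2494, again with KO+AAV 2 low (0.61, SE 0.22, adjusted p = 0.0882), and without that library it was 0.81 (0.031). Slc25a10 read 208, 153, 188 and 204 (0.52, SE 0.19, adjusted p = 0.0839). Slc25a23 read 999, 961, 1039 and 847, each below every KO library (log2 change -0.36, SE 0.15, adjusted p = 0.118). Slc25a12 read 1400, 1288, 2298 and 2668 (-0.12, SE 0.27, adjusted p = 0.798) and Slc25a13 read 1126, 596, 1435 and 1790 (0.30, SE 0.35, adjusted p = 0.579). Both spread as widely as the 2 sides of the shared pattern, and their signs depended on which libraries entered.

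Slc25a40 was the 1 carrier that differed between KO+AAV and WT (1 of 36 lower, 2.78%, and 0 higher, against 1.33% of all genes tested in either direction, 0.715% lower and 0.611% higher). It read 109, 136, 87.1 and 95.1 in KO+AAV, beside 155 to 205 in WT and 90.1 to 126 in KO. Its KO+AAV libraries overlapped KO and lay apart from WT, and no other of the 36 carriers lay apart from WT in either direction (5.4% of all genes tested did, 2.67% lower and 2.73% higher). The log2 change was -0.77 against WT (SE 0.16, adjusted p = 0.026) and 0.06 against KO (SE 0.16, adjusted p = 0.84). The call against WT was lost without WT 1, WT 2, WT 4, KO+AAV 1, KO+AAV 3 or KO+AAV 4, with adjusted p from 0.0506 to 0.0952. Over the 36 carriers the median log2 change against WT was -0.08 and 5 had an unadjusted p under 0.05, as did 18.3% of all genes tested. Equal totals moved the split over all genes from 82 higher and 96 lower to 158 higher and 82 lower. The ATP-Mg/phosphate carrier Slc25a25 read 226, 603, 236 and 325 in KO+AAV and 441 to 877 in WT (log2 change -0.95, SE 0.26, adjusted p = 0.0758). Without KO+AAV 2, which alone lay within the WT range, it was -1.26 (adjusted p = 0.00752).

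Whether loss of Sorbs2 acted differently at the 2 ages was tested as the difference between the within-age log2 changes. None of the 35 carriers tested at both ages passed (0 of 35, against 4.08% of all 12709 genes tested in both, 1.99% higher and 2.09% lower), and 6 had an unadjusted p under 0.05, as did 17.9% of all genes. Equal totals moved the split over all genes from 253 higher and 265 lower to 252 higher and 176 lower. By unadjusted p, Slc25a39 came first, with a log2 change of 0.07 at 6 weeks and -0.62 at 6 months, a difference of -0.69 (SE 0.26, adjusted p = 0.16). Slc25a3 followed with -0.23 and -0.86, a difference of -0.63 (SE 0.27, adjusted p = 0.217), and Slc25a23 with -0.05 and 0.51, a difference of 0.57 (SE 0.25, adjusted p = 0.231). The differences were larger, with wider errors, for Slc25a30 (0.98, SE 0.61, adjusted p = 0.423) and Slc25a27 (0.96, SE 0.44, adjusted p = 0.24). For Slc25a11 the changes were -0.52 and -0.84 and for Slc25a13 -0.70 and -0.80. A call at 6 months and none at 6 weeks is therefore not a shown difference between the ages for any carrier, and the higher atrial RNA at 6 weeks goes with age.

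Other genes of the mitochondrion were read from the same fits to place the carriers. Their counts in KO against WT at 6 months stand beside the 8.18% lower and 8.13% higher over all genes. In KO against WT at 6 months, 52 of 83 nuclear genes for oxidative phosphorylation subunits fell (62.7%) and 0 rose, with a median log2 change of -0.68. Mitochondrial ribosomal proteins followed with 33 of 77 lower (42.9%) and a median of -0.45. The carriers, at 8 of 36 lower and a median of -0.32, lay between these and the solute carriers of other families, of which 14 of 188 fell (7.45%) and 18 rose (9.57%), with a median of 0.01. In KO+AAV against KO, 62 of 83 subunit genes (74.7%) and 35 of 77 ribosomal genes (45.5%) were higher, with medians of 0.84 and 0.51. Of the other solute carriers 9 were higher (4.79%) and 12 lower (6.38%). These last shares were near those of all genes in that comparison, 5.55% higher and 5.69% lower. At 6 weeks 0 of 83 and 0 of 77 passed (0.589% of all genes), with medians of -0.32 and -0.15. These are counts and medians of each list and the lists were not tested against each other.

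**Figure D5:**
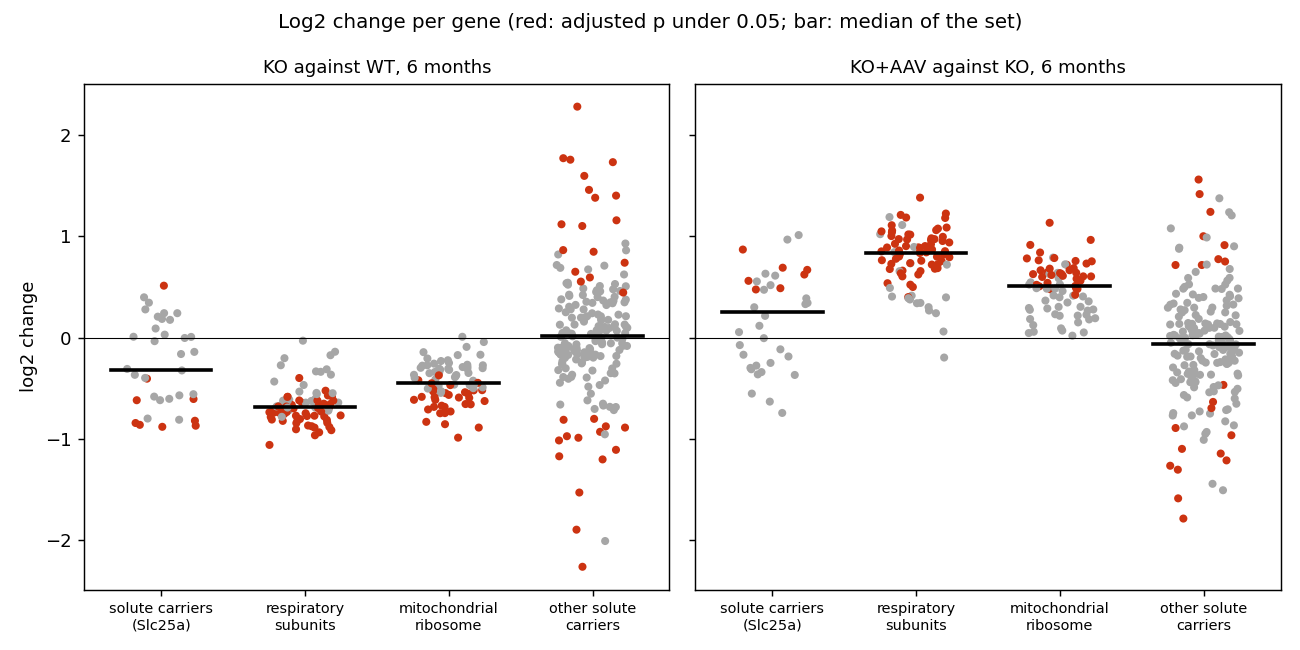
Log2 change per gene (y axis) at 6 months for KO against WT (left) and KO+AAV against KO (right) in the carriers, nuclear oxidative phosphorylation subunits, mitochondrial ribosomal proteins and solute carriers of other families (x axis). Red points passed an adjusted p of 0.05, and black bars are medians. The carriers' medians of -0.32 and 0.26 lie between those of the subunits and those of the other solute carriers.

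The 3 carriers of the family outside the set were lower in KO at 6 months as well. Slc25a4, the ADP/ATP carrier of heart and muscle, had a log2 change of -0.89 (SE 0.17, adjusted p = 0.00241), Slc25a20 one of -0.67 (0.0368) and Slc25a5 one of -0.41 (0.0252). In KO+AAV against KO, Slc25a4 rose by 0.93 (adjusted p = 0.00587), while Slc25a20 and Slc25a5 did not pass (0.173 and 0.352). Of the carriers under other names, Mtch2, an outer-membrane relative that inserts proteins, fell at 6 months (-0.47, adjusted p = 0.00777), and the uncoupling protein Ucp3 fell at 6 weeks (-1.91, adjusted p = 0.0318). The Ucp3 call was lost without WT6, KO3 or KO4, and under equal totals. That of Mtch2 was lost under 3 of 25 alternatives, among them equal totals. The pyruvate carrier subunits Mpc2 (-0.91, adjusted p = 0.000206) and Mpc1 (-0.54, adjusted p = 0.0106) fell at 6 months, and Mpc2 rose in KO+AAV against KO (0.90, adjusted p = 0.00125). In KO against WT the Mpc1 call was lost under 3 of 25 alternatives, among them equal totals, and that of Mpc2 under 0.

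The enzymes that work with the aspartate-glutamate and oxoglutarate carriers in the malate-aspartate shuttle were among the lists read. Of 7 shuttle enzymes 3 fell in KO at 6 months and 0 rose: the malate dehydrogenases Mdh2 (-0.67, adjusted p = 0.00383) and Mdh1 (-0.74, 0.0157) and the cytosolic aspartate aminotransferase Got1 (-0.74, 0.0278). The Got1 call was lost without WT 1, WT 2, WT 3, WT 4, KO 1 or KO 5. Mdh1 lost its call under 3 of 25 alternatives, among them leaving out KO 1 and KO 5 together, and Mdh2 under 2, among them quantile normalisation. The matrix enzyme Got2 had -0.53 (0.114). Against KO, Mdh2 alone of the 7 was higher in KO+AAV (14.3%, against 5.55% of all genes), with a log2 change of 0.62 (adjusted p = 0.0161, limma). That call was lost without KO+AAV 1. Outer-membrane channels and calcium uptake genes had 3 of 11 lower, led by the porins Vdac3 (-0.50, 0.0173) and Vdac2 (-0.45, 0.0201), and 1 higher, the uniporter regulator Micu2 (0.40, 0.0468). The calls of Vdac3 and Vdac2 were lost under 6 and 7 of 25 alternatives, both under equal totals and under quantile normalisation, and that of Vdac2 also without KO 5. Micu2 lost its call under 16 of 25 alternatives, including leaving out any of WT 1, WT 3, WT 4, WT 5, KO 1, KO 2, KO 4 and KO 5. Of the 12 genes tested for the import of carrier proteins 1 fell (8.33%, near the 8.18% of all genes), the outer-membrane channel Tomm40 (-0.42, 0.0304), a call lost without WT 1, WT 3, WT 4, KO 1, KO 2, KO 3 or KO 4 and under equal totals.

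Haem and iron-sulphur synthesis uses glycine, iron and possibly glutathione brought in by carriers of this family. Of its 18 genes 6 fell in KO at 6 months and 1 rose, with a median log2 change of -0.39. Alad, which makes porphobilinogen, fell most (-1.68, adjusted p = 3.26e-05), and Urod, which decarboxylates uroporphyrinogen, fell as well (-0.60, 0.00136). The transferrin receptor Tfrc rose (1.08, 0.000845). In KO+AAV against KO, 5 of 18 rose (27.8%, against 5.55% of all genes), among them Alad (0.95, 0.00885) and Urod (0.71, 0.00199). Tfrc fell (-0.78, adjusted p = 0.0194, limma), a call lost without KO 5 or KO+AAV 1. For Tfrc the KO effect differed between the ages, at -0.98 at 6 weeks and 1.08 at 6 months (difference 2.06, SE 0.28, adjusted p = 5.71e-05). It also differed for Alad (-0.67 and -1.68, difference -1.01, adjusted p = 0.0474), which did not pass without KO 1 and KO 5. Erythroid markers, whose cells make most haem, summed to between 12181 and 33515 in WT, 8077 and 25616 in KO and 13159 and 22630 in KO+AAV. These ranges overlapped, and 0 of 7 passed in KO against WT, with log2 changes from -0.79 to 3.02. The sums hide the globin gene Hbb-bs, which was at 0 in every WT library at 6 months but not throughout KO or KO+AAV. The reason for this was not tested.

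Among one-carbon, coenzyme and nucleotide enzymes, Mthfd2, which makes formyl-tetrahydrofolate in the matrix, rose (1.68, adjusted p = 0.002) and Pank1, which starts coenzyme A synthesis, fell (-0.82, 0.0142), beside the fall of the coenzyme A carrier Slc25a42. Of 16 tested, 1 rose and 2 fell. The Pank1 call was lost without KO 1 and KO 5 together (adjusted p = 0.103, limma). Mthfd2 was also higher in KO+AAV than in WT (1.85, adjusted p = 0.0112), and that call was lost among libraries with Y-linked expression alone (0.208). Of 11 regulators of mitochondrial gene expression 3 fell in KO at 6 months and 0 rose: the coactivator Ppargc1a (-1.05, 0.00728), the nuclear receptor Ppara (-0.70, 0.0251) and the oestrogen-related receptor Esrra (-0.39, 0.0305). Esrra was higher in KO+AAV than in KO (0.52, adjusted p = 0.0131), and Ppargc1a had 0.47 (0.231). In KO against WT the Esrra call was lost under 15 of 25 alternatives, including leaving out any of WT 1, WT 3, WT 4, KO 1, KO 2, KO 3 and KO 5, and the Ppara call under 9, including leaving out WT 1, WT 5, KO 1 or KO 5. Ppargc1a lost its call in KO against WT under 3 of 25 alternatives, among them leaving out KO 1 and KO 5 together. The call of Esrra in KO+AAV was lost without KO+AAV 1.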

How the data were processed

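Each age has its own deposited table, in which the authors had scaled read counts per gene separately from the other age. The deposited values are a signal that is fractional and never negative. The series text names DESeq2 for the authors' differential expression, and the build is mm10 per the submitters' processing notes. Which aligner, read counter, annotation and strand setting they used is not given in the sources used here. Per the labels' protocols, poly(A) RNA was made into stranded libraries after an RNA integrity number over 9 was measured. Whole reads could not be recovered from the values, so no count model was run, no counting intervals are given and the depth behind each value is unknown.

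Values were taken as log2(value + 1) and fitted with limma 3.58.1 (R 4.3.3) with a mean-variance trend, for all genes with a value of at least 10 in at least 3 libraries (6 weeks) or 4 libraries (6 months). The 3 groups at 6 months shared 1 model. Tests were two-sided, with Benjamini-Hochberg adjustment over all genes tested and a threshold of 0.05. Fold changes are on the log2(value + 1) scale, which understates changes of low genes. The difference between ages was tested from the 2 log2 changes and their standard errors. The fit was tested on simulated data.

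Groups came from the labels. The 6-week columns could be matched to their group but not to single samples, and 0 columns of values were left unused. Positions, exon lengths and overlaps are from GENCODE M21 on mm10, and promoter windows from RefSeq. Values in every library were given for Slc25a3, Slc25a11, Slc25a12 and Slc25a13. For the other carriers reported as past the threshold in a comparison, values were given for the 6-month libraries only. Up to 3 genes past the threshold were named from each pathway list. The members, roles, lists and marker genes were chosen with earlier results of these data known. Slc25a22, Slc25a25 and other carriers below the threshold were named after their values were seen. No protein sequences are shown, and a sequence analysis of the proteins was not done here. Results of some genes are not reported here, though counts and medians of lists include them.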

Additional observations from a re-analysis of the deposited data

Results flagged for a closer look

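For 14 carriers, 42 groups of 4 or 5 libraries at 6 months were checked for a value far from the others, and 2 were found. Chance gives about 1 in 20. Slc25a39 was 2250 in WT 1, with the other WT libraries between 1517 and 1605. Without WT 1 the fall of Slc25a39 in KO still passed the test. Slc25a28 was 494 in KO+AAV 2, with the other KO+AAV libraries between 324 and 343. Without KO+AAV 2 the log2 change of Slc25a28 against KO was 0.48 (adjusted p = 0.0932, limma).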

How the results depend on the processing

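Leaving out each library in turn gave 0 to 1 carriers lower in KO at 6 weeks (1, Slc25a22, without WT1), and at 6 months 6 to 8 lower and 0 to 1 higher in KO (0 higher without KO 5). It gave 1 to 8 higher and 0 to 1 lower in KO+AAV than in KO (1 lower, Slc25a25, without KO+AAV 2), and 0 to 2 lower in KO+AAV than in WT (2 without KO+AAV 2). With a covariate for Xist-expressing libraries, 1 carrier was lower at 6 weeks, 0 were higher in KO at 6 months, and 3 were higher in KO+AAV than in KO. Libraries with Y-linked expression alone gave 1 lower at 6 weeks, 0 higher in KO at 6 months, 0 higher in KO+AAV than in KO and 0 lower in KO+AAV than in WT. Equal totals left 3 higher in KO+AAV than in KO. Without KO 1 and KO 5, KO against WT gave 3 lower (Slc25a3, Slc25a40 and Slc25a42) and 0 higher. A fit of only the groups compared gave 0 lower in KO+AAV than in WT. With fewer libraries in the fit, the tests also have fewer degrees of freedom. All genes higher in KO+AAV than in KO went from 745 to 224 with the Xist covariate, 82 with Y-linked libraries alone and 521 under equal totals. Without KO 1 and KO 5, all genes lower in KO than in WT went from 1098 to 712 and those higher from 1091 to 669. At 6 weeks all genes lower went from 28 to 72 with the Xist covariate and to 189 with Y-linked libraries alone.

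Chosen after seeing the data, the side of the shared pattern as a covariate gave 13 carriers lower in KO than in WT, 12 higher and 1 lower in KO+AAV than in KO, and 4 lower and 1 higher in KO+AAV than in WT. Of all genes it gave 1908 lower in KO than in WT, and 1682 higher and 1739 lower in KO+AAV than in KO. Against WT, 754 of all genes were lower and 580 higher in KO+AAV. The 8 libraries of one side gave 0 carriers higher in KO than in WT and 3 lower in KO+AAV than in WT, beside 1031 and 421 of all genes. The 6 libraries of the other side gave 4 carriers lower and 0 higher in KO than in WT, beside 660 and 627 of all genes. They gave 4 carriers higher in KO+AAV than in KO and 0 lower in KO+AAV than in WT, beside 679 and 26 of all genes. The log2 change of Slc25a12 in KO+AAV against KO changed sign to 0.07 with the Xist covariate, 0.01 without KO+AAV 1, 0.05 without KO+AAV 2 and 0.00 in the 8 libraries, and that of Slc25a13 to -0.13 without KO 1 and KO 5, and none of these passed.

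Replicate numbers are shared between groups at 6 months, and no label used here says whether they pair samples. Of the deviations from group means, those of 7 of 13 like-numbered pairs correlated above 0.1 (range -0.391 to 0.253), which cannot settle it. The replicate block gave 9 carriers lower and 1 higher in KO than in WT, 6 higher in KO+AAV than in KO and 1 lower in KO+AAV than in WT. Of all genes it gave 1044 lower and 1027 higher, 855 higher, and 103 lower in these comparisons, in the same order. At 6 weeks no such block could be fitted, because the columns carry no replicate number.

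Over all genes the number called ranged from 7 (without KO4) to 409 (libraries with Y-linked expression alone) at 6 weeks, against 78. At 6 months it ranged from 1287 to 3526, against 2189, for KO and WT, from 335 to 3421, against 1509, for KO+AAV and KO, and from 41 to 1334, against 178, for KO+AAV and WT, each highest with the side of the shared pattern as a covariate. For the difference between ages it was 427 to 546, against 518.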
